A study of Mus musculus with 6 samples.

Results

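Core promoters of named genes were the regions on the autosomes whose deposited annotation is a promoter at most 1 kb from the start site of transcription and that are assigned to a gene with a proper name, that is, a symbol other than a provisional Gm number or Rik clone name. These were 7080 of the 58511 regions, or 12.1%, and they belonged to 6565 genes, of which 468 had more than 1 region. H3K9me3 was mapped in them by CUT&Tag, in which an antibody against the mark tethers Tn5 transposase to chromatin so that the DNA around it is cut and tagged. The cells were endothelial progenitor cells (EPCs) from mouse bone marrow, selected magnetically for Sca-1 and CD31, labelled as freshly isolated and grown in EGM-2 medium. Cells came from C57BL/6J males (M-EPC), intact females (F-EPC) and females whose ovaries had been removed at around 35 days of age (OVX-EPC), all at about 8 weeks of age, with 2 libraries in each group. Duplicate vials of cells were set aside, and no source says whether the 2 libraries of a group came from separate cultures or animals. The p-values therefore measure only the spread between libraries, which may be technical.

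H3K9me3 is written by methyltransferases such as SUV39H1, SUV39H2 and SETDB1 and is read by HP1 proteins. It is best known from pericentromeric heterochromatin, transposable elements and clusters of zinc finger genes, where it accompanies silencing. Promoters of genes that most cells use are usually CpG islands, stretches rich in the dinucleotide CG that stay free of DNA methylation and carry little of the mark. Because Tn5 also cuts accessible DNA, a read at an active promoter need not come from the modified histone. Reads at a promoter are given here as measured, and the contribution of accessibility to them was not tested.

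Region reads numbered 288353 to 573821 per library, of which 39437 to 106210 lay in core promoters. Reads were present in both F-EPC libraries only on chromosome 1, chromosomes 10 to 15 and the start of chromosome 16. Those of F-EPC replicate 1 ended there. F-EPC replicate 2 held reads beyond it, with 252356 of its 410439 region reads in this part. This left 2810 of the 7080 core promoters (39.69%) that could be compared with both F-EPC libraries, called covered here. A histone mark does not measure expression, so the cell type label could not be checked against marker genes. Of 35 genes of endothelial identity, 3 had a core promoter region, with 4 regions at a median of 13.1 reads per kb (mean of the M-EPC and OVX-EPC libraries), compared with 26.2 over all core promoters.

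The sequences below are from regions that passed the test in a comparison described later, some of them narrowly. Another is from a region of Sfi1, a gene with some of the highest levels. They are shown so that their base content can be read beside the values. Each is the part outside annotated exons, 5′ to 3′ on the strand of the gene, in the GRCm38.p6 build, with every CG dinucleotide in capitals.
Clic5 chr17:44187349-44187508, plus strand: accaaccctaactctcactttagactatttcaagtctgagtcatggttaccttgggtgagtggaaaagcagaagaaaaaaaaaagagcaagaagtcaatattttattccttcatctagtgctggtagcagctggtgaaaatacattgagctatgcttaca
Ccl12 chr11:82101574-82101733, plus strand: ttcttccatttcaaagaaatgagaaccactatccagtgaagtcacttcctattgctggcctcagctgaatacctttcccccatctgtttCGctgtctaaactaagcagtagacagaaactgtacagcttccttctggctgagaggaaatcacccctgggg
Sfi1 chr11:3177672-3177831, minus strand: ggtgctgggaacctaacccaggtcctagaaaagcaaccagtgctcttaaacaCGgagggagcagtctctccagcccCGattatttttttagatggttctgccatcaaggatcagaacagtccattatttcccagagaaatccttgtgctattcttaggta
Unc5a chr13:55003417-55003541, plus strand: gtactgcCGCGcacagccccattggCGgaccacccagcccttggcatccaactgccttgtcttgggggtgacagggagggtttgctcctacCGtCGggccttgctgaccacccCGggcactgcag
Mogat1 chr1:78537793-78537943, plus strand: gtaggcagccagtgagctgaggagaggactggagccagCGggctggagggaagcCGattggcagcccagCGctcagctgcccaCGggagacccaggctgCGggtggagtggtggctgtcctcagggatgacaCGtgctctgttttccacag
Socs1 chr16:10785555-10785714, minus strand: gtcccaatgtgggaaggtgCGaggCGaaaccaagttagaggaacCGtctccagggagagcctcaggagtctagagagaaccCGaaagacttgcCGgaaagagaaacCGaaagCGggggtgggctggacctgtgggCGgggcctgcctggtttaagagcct
Acly chr11:100528008-100528167, minus strand: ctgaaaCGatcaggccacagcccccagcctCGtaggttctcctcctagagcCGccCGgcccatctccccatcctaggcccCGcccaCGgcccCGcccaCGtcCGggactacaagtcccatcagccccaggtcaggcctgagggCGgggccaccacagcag
Mex3b chr7:82866235-82866394, plus strand: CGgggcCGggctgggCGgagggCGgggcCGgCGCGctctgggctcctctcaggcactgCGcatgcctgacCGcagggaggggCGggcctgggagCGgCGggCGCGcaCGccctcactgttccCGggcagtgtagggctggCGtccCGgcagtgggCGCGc
Mex3b chr7:82867124-82867283, plus strand: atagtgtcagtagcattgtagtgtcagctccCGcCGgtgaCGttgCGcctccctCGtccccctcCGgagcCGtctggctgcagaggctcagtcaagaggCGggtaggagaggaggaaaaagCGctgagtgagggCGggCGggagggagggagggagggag

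The stretches of Clic5, Ccl12 and Sfi1 held 0 to 2 CG dinucleotides, and those of Acly and Mex3b held 10 to 20. The motif GGGCGG, read on both strands, occurred 4 times in the Acly stretch, 3 times and 2 times in the stretches of Mex3b and once in that of Socs1. The regions that changed thus ranged from CG-poor to CG-rich sequence.

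Core promoters as a class were CpG-rich. Of the 7080 regions, 5037 (71.14%) had a high ratio of observed to expected CpG (0.6 or more), 917 an intermediate ratio and 1126 (15.9%) a low one (under 0.35), compared with 2.77% high among the other autosomal regions. Median GC content was 62.5%, compared with 47.8%, and the median region held 30 CpGs, compared with 3. The GC-box GGGCGG was in 65.36% of core promoters and in 14% of all regions, and in 80.91% of the high-CpG and 10.94% of the low-CpG core promoters. CCGGAAG, an ETS-type sequence, was in 17.78%, compared with 4.21% of all regions. GCATGCG, the core of an NRF1-type sequence, was in 7.75%, compared with 2.18%. TGACGTCA, a cyclic AMP response sequence, was in 3.06%, compared with 0.706%. CCAAT was less frequent in core promoters (43.32%) than in all regions (47.27%), as was TATAAA (6.29% and 16.35%). Each motif was searched on both strands of regions that were nearly all 400 bp long (99.08%), and motifs overlap within CpG-rich sequence.

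Most core promoters held few reads. The median region had 12 and 12 reads for M-EPC and 9 and 10 for OVX-EPC, while other autosomal regions had 5 and 7 for M-EPC and 6 and 6 for OVX-EPC. In covered regions, core promoters had medians of 11 and 11 reads for M-EPC, 11 and 10 for F-EPC and 9 and 9 for OVX-EPC. Other regions there had 4 and 6 for M-EPC, 8 and 7 for F-EPC and 6 and 6 for OVX-EPC. Reads were concentrated at the start site itself. The 4929 regions that overlapped a GENCODE start had medians of 13, 13, 10 and 11 reads in the libraries M-EPC 1, M-EPC 2, OVX-EPC 1 and OVX-EPC 2. The 560 regions lying 500 to 1000 bp away had 7, 8, 7 and 7, the same medians as the 967 regions of named genes annotated just outside the limit, 1 to 2 kb away. High-CpG core promoters had medians of 13, 13, 10 and 11, and low-CpG core promoters 7, 8, 6 and 6.

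Reads per kb were highest at Sfi1, which encodes a centrin-binding protein of the centrosome, and at Fau-ps2, a pseudogene beside it on chromosome 11. Of the 8 core promoters with the highest level, 7 belonged to Sfi1, from 354 to 814 reads per kb over the M-EPC and OVX-EPC libraries, and Fau-ps2 had 651. The region chr11:3193193-3193592 overlapped the 5′ end of Sfi1, whereas the other Sfi1 regions lay 15512 to 58175 bp inside the gene. At the Sfi1 region chr11:3193193-3193592 the counts were 283 and 316 reads for M-EPC, 426 and 347 for F-EPC and 368 and 336 for OVX-EPC. At Fau-ps2 (chr11:3196425-3196824) the counts were 198 and 258 reads for M-EPC, 362 and 302 for F-EPC and 293 and 293 for OVX-EPC. The reads were not scaled for depth. None of the 8 regions passed the test in any comparison, and their log2 fold changes of OVX-EPC against M-EPC ran from -0.07 to 0.44. Fau-ps2 is a copy of the gene Fau, so the level given for it is uncertain where reads could belong to either. How uniquely reads map to the Sfi1 regions was not tested.

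The share of autosomal region reads that fell in core promoters was highest in M-EPC replicate 1. Over all autosomal regions it was 21.5% (95% Wilson interval 21.4 to 21.6) and 18.4% (18.3 to 18.5) in the M-EPC libraries and 16.8% (16.7 to 16.9) and 16.8% (16.7 to 16.9) in the OVX-EPC libraries. In covered regions it was 20.3% (20.1 to 20.5) and 17.0% (16.8 to 17.1) in M-EPC, 13.7% (13.6 to 13.8) and 15.7% (15.5 to 15.8) in F-EPC and 15.6% (15.5 to 15.8) and 15.5% (15.4 to 15.7) in OVX-EPC. Both M-EPC libraries lay above all others, and these intervals cover counting error only.

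**Figure D1:**
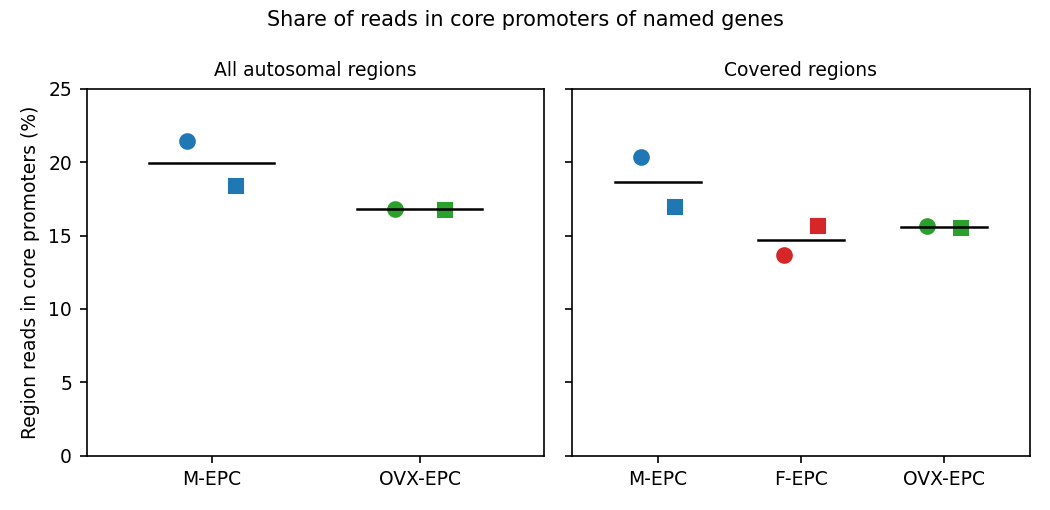
Percentage of autosomal region reads in core promoters of named genes (vertical axis) by group, over all autosomal regions on the left and over covered regions on the right. Circles are replicate 1, squares replicate 2 and lines the group means (19.9% and 16.8% on the left, 18.6%, 14.7% and 15.6% on the right), and both M-EPC libraries lie above the rest.

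The mean share was 16.8% ± 0.028 in OVX-EPC and 19.9% ± 2.19 in M-EPC (SD, n = 2), a difference of -3.14 percentage points (two-sided exact permutation test, p = 0.333). For F-EPC against M-EPC it was 14.7% ± 1.42 and 18.6% ± 2.38 (SD, n = 2), a difference of -3.97 points (exact permutation test, p = 0.333). For OVX-EPC against F-EPC it was 15.6% ± 0.069 and 14.7% ± 1.42 (SD, n = 2), a difference of 0.915 points (exact permutation test, p = 1), which turned to -0.087 without F-EPC replicate 1. With 2 libraries against 2 the smallest p this test can give is 0.333. Without M-EPC replicate 1 the differences against M-EPC were -1.59 points for OVX-EPC and -2.29 for F-EPC. With regions limited to those with at least 30 reads in 2 libraries they were -1.82 and -2.02 points. The mean GC content of reads outside core promoters was also highest in M-EPC replicate 1, at 49.1%, with 48.6% to 48.7% in M-EPC replicate 2 and both OVX-EPC libraries. In covered regions it was 48.8% in M-EPC replicate 1 and 48.3% to 48.5% in the other 5 libraries. The part of base composition in the share was not tested by itself.

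The same displacement was present across the class and not at a few promoters alone. Without any filter on low values, the median log2 fold change of OVX-EPC against M-EPC was -0.29 over all 7080 core promoters, of which 73.4% were below 0, and 0.06 over the other autosomal regions, of which 47.0% were below 0. For F-EPC against M-EPC the medians were -0.41 (78.22% below 0) over 2810 core promoters and 0.12 (43.52% below 0) elsewhere. For OVX-EPC against F-EPC they were 0.09 and -0.03. The M-EPC libraries are shared by the first 2 comparisons. Fold changes are on the scale of log2(value + 1), where a value is reads divided by the library's size factor, and this scale understates changes of regions with few reads. The level of the whole comparison depended on the scaling: over all regions tested the median for OVX-EPC against M-EPC was -0.16 as deposited and 0.00085 after scaling by TMM, so the distance of core promoters from other regions is the quantity to read.

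The displacement was present in each CpG class. For OVX-EPC against M-EPC the median was -0.21 in low-CpG, -0.26 in intermediate and -0.31 in high-CpG core promoters, while other autosomal regions of the same classes had 0.07, 0.03 and -0.09. For F-EPC against M-EPC core promoters had -0.22, -0.36 and -0.44, and other regions 0.14, 0.06 and -0.10. Core promoters thus lay below other regions of the same class in all 3 classes of both comparisons.

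**Figure D2:**
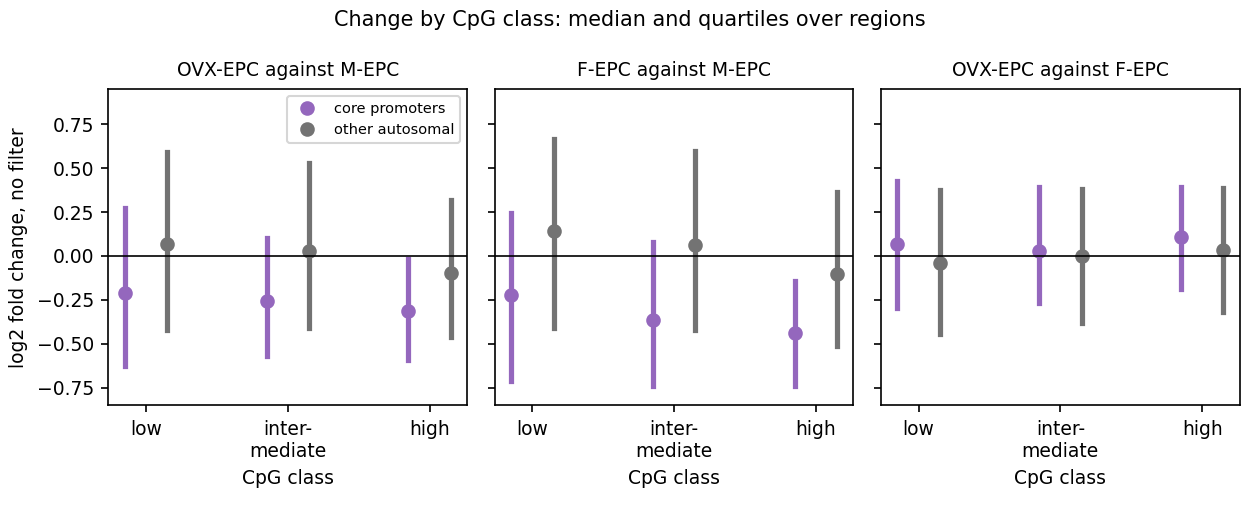
Median log2 fold change without a filter on low values (points) with its quartiles (bars) by CpG class, for core promoters of named genes and for other autosomal regions, in 3 comparisons. In OVX-EPC and F-EPC against M-EPC core promoters lie below other regions of their class, at -0.31 and -0.44 in the high-CpG class compared with -0.09 and -0.10, whereas in OVX-EPC against F-EPC all medians lie between -0.04 and 0.11.

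Among regions with enough reads to be tested, the median of core promoters minus that of other autosomal regions was -0.21 in OVX-EPC against M-EPC and -0.36 in F-EPC against M-EPC, and the same score varied between replicates with an SD of 0.111 and 0.124. For OVX-EPC against F-EPC it was 0.11 (SD 0.098). Removing the trend of signal with GC content from each library brought the values to -0.09, -0.15 and 0.04. Without that step, leaving out each library in turn gave values from -0.27 to -0.11, from -0.46 to -0.19 and from 0.015 to 0.22. For OVX-EPC against M-EPC the value was -0.11 without M-EPC replicate 1 and -0.12 without OVX-EPC replicate 2, and for F-EPC against M-EPC it was -0.23 without M-EPC replicate 1 and -0.19 without F-EPC replicate 1. Between the female groups it was 0.015 without F-EPC replicate 1, 0.040 without OVX-EPC replicate 1 and 0.22 without F-EPC replicate 2, and the median of core promoters itself went from 0.12 to -0.03 without F-EPC replicate 1. The values against M-EPC were, in regions with at least 30 in 2 libraries, -0.12 and -0.11. No p-value was computed for the score, since regions are not replicates. Testable core promoters were split by their level into 4 bins of about 1010 regions, and the medians for OVX-EPC against M-EPC were -0.28, -0.31, -0.31 and -0.35 from the lowest to the highest bin. By chromosome they ran from -0.39 on chromosome 16 to -0.27 on chromosome 14.

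Setting OVX-EPC against M-EPC compares females without ovaries with males, and it covers all autosomes. No removal of gonads is described for the males, so sex and male hormones cannot be told apart in it. Core promoters lower in OVX-EPC included those of Unc5a, a receptor of the axon guidance protein netrin, Mex3b, an RNA-binding protein, Clic5, a chloride intracellular channel protein, of Pcnx2 and Tmem143, which encode membrane proteins, and Acly, ATP citrate lyase, which makes cytosolic acetyl-CoA. A value of at least 10 in at least 2 libraries was reached by 4042 of the 7080 core promoters, and 9 of them passed the test, all lower (limma, Benjamini-Hochberg adjusted over 16931 regions). Over all regions tested 0.402% were called lower and 0.0473% higher. The called share of core promoters, 0.223%, was not above this background.

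The Unc5a region (chr13:55003203-55003830, ENSMUSG00000025876) lay inside its gene, over an internal start 53792 bp from the 5′ end. The counts were 36 and 33 reads for M-EPC, 8 and 8 for F-EPC and 10 and 3 for OVX-EPC. Its value was 34.2 ± 6.27 for M-EPC and 6.48 ± 5.15 for OVX-EPC (SD, n = 2), giving a log2 fold change of -2.42 ± 0.42 (SE; limma, adjusted p = 0.00197). The next region of the gene (chr13:55004778-55005177), 1 to 2 kb from the start, had 29 and 25 reads for M-EPC, 18 and 8 for F-EPC and 11 and 6 for OVX-EPC and passed the test as well (log2 fold change -1.61; limma, adjusted p = 0.0443). On the other side, chr13:54997749-54998148 had 16 and 13 reads for M-EPC, 8 and 10 for F-EPC and 6 and 8 for OVX-EPC and did not pass (log2 fold change -0.97; limma, adjusted p = 0.289).

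At Mex3b the called regions were the high-CpG sequence at the start of the gene and that just before it. In chr7:82866115-82866514, 819 bp upstream, the counts were 59 and 58 reads for M-EPC and 24 and 16 for OVX-EPC. In chr7:82866938-82867337, over the start, the counts were 35 and 35 reads for M-EPC and 8 and 13 for OVX-EPC. The F-EPC libraries have no reads on chromosome 7. The upstream region decreased from 57.9 ± 7.77 to 19.7 ± 6.48 (SD, n = 2, with log2 fold change -1.54 ± 0.29, SE; limma, adjusted p = 0.00553). The region over the start decreased from 34.6 ± 4.23 to 10.2 ± 2.97 (SD, n = 2, with log2 fold change -1.69 ± 0.34, SE; limma, adjusted p = 0.0116). Another region of Mex3b, 2 to 3 kb from the start and so no core promoter (chr7:82869538-82869937), had 95 and 88 reads for M-EPC and 14 and 7 for OVX-EPC (limma, adjusted p = 1.15e-06). A region farther along (chr7:82873324-82873723) had 28 and 25 reads for M-EPC and 2 and 6 for OVX-EPC. Signal was thus lower on both sides of the start in OVX-EPC.

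Clic5 (chr17:44187229-44187628, 956 bp upstream) had 21 and 23 reads for M-EPC and 4 and 5 for OVX-EPC, giving a log2 fold change of -2.08 ± 0.44 (SE; limma, adjusted p = 0.0216). Pcnx2 (chr8:125828977-125829376, at a start inside the gene) had 27 and 19 reads for M-EPC and 7 and 5 for OVX-EPC, giving a log2 fold change of -1.78 ± 0.41 (SE; limma, adjusted p = 0.0431). These 2 promoters were CpG-poor. Tmem143 (chr7:45896795-45897194) had 55 and 55 reads for M-EPC and 26 and 22 for OVX-EPC, giving a log2 fold change of -1.18 ± 0.27 (SE; limma, adjusted p = 0.0431). Acly (chr11:100527776-100528175) had 29 and 27 reads for M-EPC, 17 and 27 for F-EPC and 9 and 10 for OVX-EPC. Its log2 fold change was -1.48 ± 0.35 (SE; limma, adjusted p = 0.0443). At Acly 1 F-EPC library had as many reads as M-EPC replicate 2, and F-EPC against M-EPC did not pass (log2 fold change -0.74; limma, adjusted p = 0.19).

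**Figure D3:**
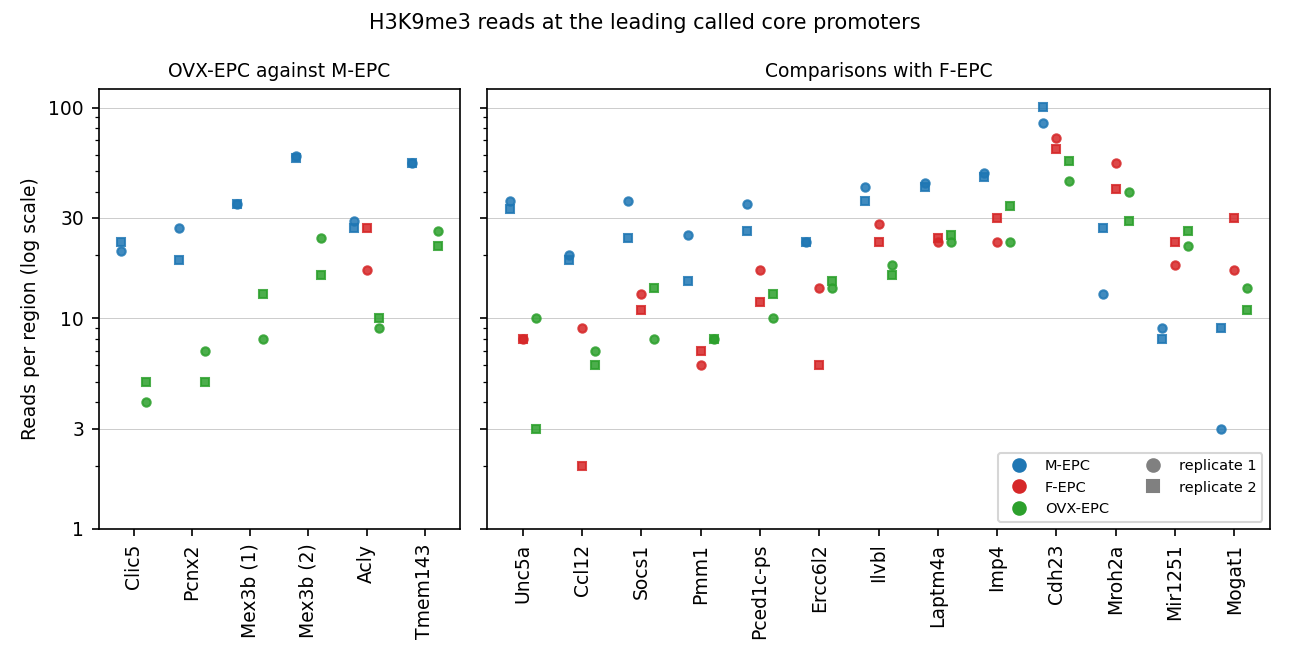
Reads per region (vertical log axis, not scaled for depth) in each library at called core promoters with small p-values, with circles for replicate 1 and squares for replicate 2. The left panel shows regions of OVX-EPC against M-EPC and the right panel those of the comparisons with F-EPC, where Unc5a goes from 36 and 33 reads in M-EPC to 8 and 8 in F-EPC.

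Calls depended on the libraries and on the test. With a library left out, its group has 1 library, which is assumed to vary like the other group, and fewer regions are tested. Without M-EPC replicate 1 or without M-EPC replicate 2 limma called 0 core promoters, without OVX-EPC replicate 1 it called 2 and without OVX-EPC replicate 2 it called 3. The log2 fold changes ran from -2.17 to -1.98 at Clic5, from -1.50 to -1.45 at Acly and from -3.19 to -1.65 at Unc5a in these fits. DESeq2 on the recovered reads called 1 core promoter, and it was none of those described above. Unc5a did not pass with it (DESeq2, Benjamini-Hochberg adjusted p = 0.531). With edgeR 11 were called, of which 8 were among the 9.

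Setting F-EPC against M-EPC compares females with intact ovaries with males. The Unc5a region was lower in F-EPC too, together with those of Ccl12, a chemokine that attracts monocytes, of Socs1 and Socs3, feedback inhibitors of cytokine signalling through JAK and STAT proteins, and of Pias4, a SUMO ligase that inhibits STAT proteins. Of the 2810 covered core promoters 1681 were tested, and 20 were called, all lower in F-EPC (limma, Benjamini-Hochberg adjusted over 8139 regions). The background was 1.62% of all regions called lower and 0.172% called higher. At 1.19% the called share of core promoters was again not above it.

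Unc5a went from 39.2 ± 8.18 in M-EPC to 6.88 ± 0.701 in F-EPC (SD, n = 2), giving a log2 fold change of -2.34 (limma, adjusted p = 0.000806). Its 8 and 8 reads for F-EPC lay in the range of the 10 and 3 for OVX-EPC.

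Among genes of cytokine signalling, Ccl12 (chr11:82101463-82101862) had 20 and 19 reads for M-EPC, 9 and 2 for F-EPC and 7 and 6 for OVX-EPC. Its value went from 22.1 ± 4.06 to 4.51 ± 3.77 in F-EPC (SD, n = 2), giving a log2 fold change of -2.25 ± 0.49 (SE; limma, adjusted p = 0.0193). For OVX-EPC against M-EPC Ccl12 had -1.46 and did not pass (limma, adjusted p = 0.116). Socs1 (chr16:10785333-10785732) had 36 and 24 reads for M-EPC, 13 and 11 for F-EPC and 8 and 14 for OVX-EPC, with a log2 fold change of -1.60 ± 0.35 in F-EPC (SE; limma, adjusted p = 0.0211). Socs3 (chr11:117969040-117969439), which was named with Pias4 after the values were seen, had 18 and 19 reads for M-EPC, 9 and 7 for F-EPC and 9 and 7 for OVX-EPC (log2 fold change -1.48; limma, adjusted p = 0.0437). Pias4 had 17 and 19 reads for M-EPC, 10 and 4 for F-EPC and 21 and 14 for OVX-EPC (log2 fold change -1.71; limma, adjusted p = 0.0376). OVX-EPC lay with F-EPC at Ccl12, Socs1 and Socs3 and with M-EPC at Pias4. The difference between the female groups at Pias4 did not pass (log2 fold change 1.60; limma, adjusted p = 0.768).

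The remaining regions of F-EPC against M-EPC belonged to genes of various functions. Imp4, a factor of ribosomal RNA processing, had 49 and 47 reads for M-EPC, 23 and 30 for F-EPC and 23 and 34 for OVX-EPC (log2 fold change -1.22; limma, adjusted p = 0.0293). Pmm1, a phosphomannomutase, had 25 and 15 reads for M-EPC, 6 and 7 for F-EPC and 8 and 8 for OVX-EPC (-1.80; limma, adjusted p = 0.0293). Laptm4a, a lysosomal membrane protein, had 44 and 42 reads for M-EPC, 23 and 24 for F-EPC and 23 and 25 for OVX-EPC (-1.22; limma, adjusted p = 0.0297). At these 3 promoters the reads of OVX-EPC lay near those of F-EPC. Ercc6l2, a helicase-like protein of DNA repair, had 23 and 23 reads for M-EPC, 14 and 6 for F-EPC and 14 and 15 for OVX-EPC (-1.59; limma, adjusted p = 0.0337). The pseudogene Pced1c-ps had 35 and 26 reads for M-EPC, 17 and 12 for F-EPC and 10 and 13 for OVX-EPC (-1.40; limma, adjusted p = 0.0337). Cdh23, a cadherin of inner ear hair cells, was a small change at a high level, with 85 and 101 reads for M-EPC, 72 and 64 for F-EPC and 45 and 56 for OVX-EPC (-0.83; limma, adjusted p = 0.037). Its region is exonic and lies at a start 390978 bp inside the gene. Without M-EPC replicate 1 limma called 0 of the core promoters and without M-EPC replicate 2 it called 20, of which 6 were among these 20. Without F-EPC replicate 1 it called 7 and without F-EPC replicate 2 it called 10. DESeq2 called 2 and edgeR 10. The 2 calls of DESeq2 were none of the promoters described above, and Unc5a did not pass (DESeq2, Benjamini-Hochberg adjusted p = 0.0853). With TMM factors 3 were called, Unc5a among them (limma, adjusted p = 0.00418).

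The comparison of OVX-EPC with F-EPC sets ovariectomized against intact females. Here, as in the comparisons with M-EPC, a group difference cannot be told apart from a difference between cultures or preparations. None of 1485 tested core promoters was called (0, limma, Benjamini-Hochberg adjusted over 7897 regions), and the background was 0.0127%. At an unadjusted p under 0.05 there were 82 core promoters, and 6.22% of all regions tested. DESeq2 and edgeR also called 0. In simulated data of this comparison 66% of 4-fold and 7% of 2-fold changes were recovered. Those changes were placed only in regions with a mean value above that of the median core promoter, with an assumed spread between libraries. A 2-fold difference between the female groups would thus mostly be missed, and recovery at core promoters with fewer reads was not simulated.

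A joint model of all 6 libraries then contrasted both female groups with the male one. Of 1739 tested core promoters 45 were lower and 3 higher in the females (limma, Benjamini-Hochberg adjusted over 8695 regions), compared with 2.69% lower and 1.09% higher over all regions tested. The lower regions included Unc5a, with a log2 fold change of -2.41 (limma, adjusted p = 6.54e-08). Socs1 (-1.52; limma, adjusted p = 0.0013), Pced1c-ps (-1.39; limma, adjusted p = 0.00264) and Cdh23 (-0.88; limma, adjusted p = 0.00288) were lower as well. Ilvbl, an enzyme related to acetolactate synthase, had 42 and 36 reads for M-EPC, 28 and 23 for F-EPC and 18 and 16 for OVX-EPC (-1.09; limma, adjusted p = 0.00789). Of the 48 called regions 34 were high-CpG, 9 intermediate and 5 low-CpG, out of 1366, 188 and 185 tested in these classes. Called regions lay mostly among the better covered promoters, with 25 in the highest of 4 bins of level and 1 in the lowest.

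The 3 higher promoters were those of Mogat1, a monoacylglycerol acyltransferase of lipid synthesis, Mroh2a, a HEAT repeat protein, and the microRNA gene Mir1251. The Mogat1 region lay 26559 bp inside its gene, over an internal start. That of Mroh2a lay 12049 bp inside its gene, 927 bp downstream of the nearest start. Mogat1 (chr1:78537550-78537949) had 3 and 9 reads for M-EPC, 17 and 30 for F-EPC and 14 and 11 for OVX-EPC (log2 fold change 1.30 ± 0.37, SE; limma, adjusted p = 0.0236). Mroh2a (chr1:88239035-88239434) had 13 and 27 reads for M-EPC, 55 and 41 for F-EPC and 40 and 29 for OVX-EPC (0.84 ± 0.26, SE; limma, adjusted p = 0.0347). Mir1251 (chr10:92136862-92137261) had 9 and 8 reads for M-EPC, 18 and 23 for F-EPC and 22 and 26 for OVX-EPC (1.07 ± 0.32, SE; limma, adjusted p = 0.0328). At Mir1251 both female groups lay above M-EPC in every library, but the call was lost without any 1 of the 6 libraries. RefSeq gives 2 mature forms for it, shown with the seed, bases 2 to 8, in capitals.
mmu-miR-1251-5p: aCUCUAGCugccaaaggcgcu
mmu-miR-1251-3p: cGCUUUGCucagccaguguag
They are read from the minus strand at chr10:92137190-92137210 and chr10:92137152-92137172, inside the region measured. Their seeds differ.

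**Figure D4:**
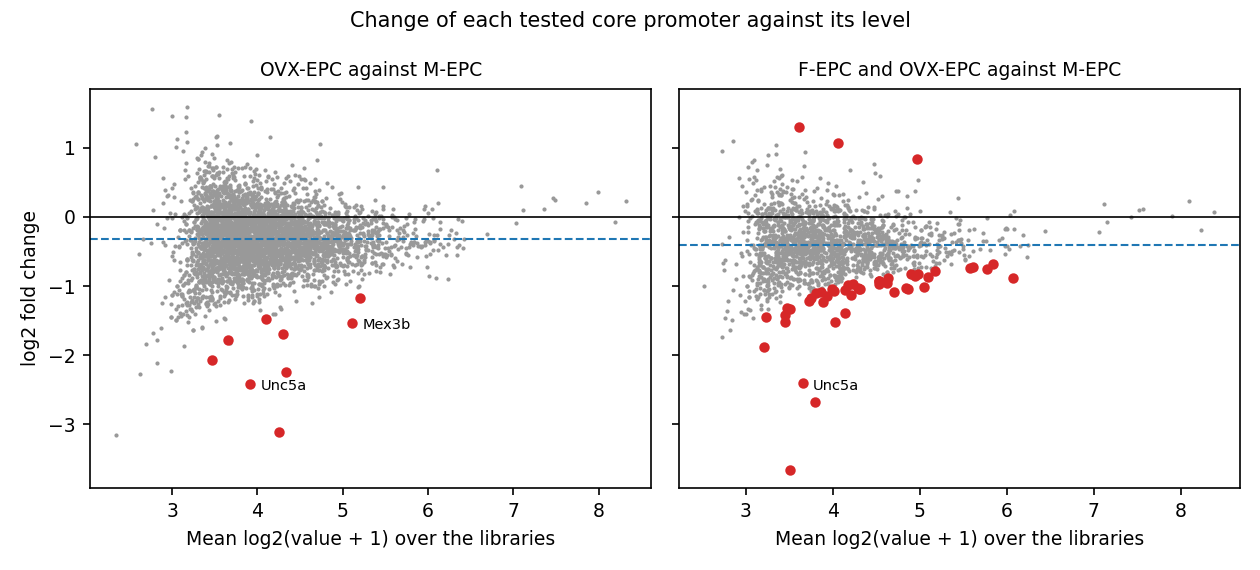
Log2 fold change (vertical axis) against mean log2(value + 1) (horizontal axis) of each tested core promoter, on the left with OVX-EPC against M-EPC, on the right for both female groups against M-EPC. Red points passed the test (9, and 48 of which 3 were higher), and the dashed lines are the medians, -0.32 and -0.40, below 0 along the range of levels.

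In the 6-library model DESeq2 called 3 core promoters, Unc5a among them (Benjamini-Hochberg adjusted p = 0.011 at Unc5a), and edgeR 40, of which 37 were among the 48. Without M-EPC replicate 1 limma called 2 and without M-EPC replicate 2 it called 45, of which 20 were among the 48. Without the F-EPC libraries in turn it called 16 and 22, and without the OVX-EPC libraries 39 and 29. With the GC trend removed 16 of 1739 were called, compared with 331 of all 8695 regions tested. Of the 16, 5 were higher and 14 were among the 48.

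Gene groups are described by their counts and medians beside those of all core promoters, since they were chosen with earlier results of these data known. Zinc finger genes, whose clusters are classical sites of the mark, had 235 regions at a median of 31.2 reads per kb, compared with 26.2 for all core promoters. For OVX-EPC against M-EPC 164 of them were tested, 0 were called, and the median log2 fold change was -0.32, the same as over all tested core promoters. For F-EPC against M-EPC 45 were tested and 2 were lower. These were Zfp273 with 25 and 26 reads for M-EPC, 18 and 6 for F-EPC and 18 and 18 for OVX-EPC (limma, adjusted p = 0.0376) and Zfp708 with 19 and 18, 9 and 6, and 8 and 7 reads (limma, adjusted p = 0.0376). Ribosomal protein genes, which most cells express strongly, had 53 regions at 28.8 reads per kb, and of 40 tested for OVX-EPC against M-EPC 0 were called (median -0.33). Solute carriers had 124 regions at 23.4 reads per kb and a median of -0.38 over 63 tested, with 0 called. In the 6-library model 1 of 29 tested solute carriers was lower, the zinc transporter Slc39a10, with 61 and 61 reads for M-EPC, 50 and 46 for F-EPC and 37 and 38 for OVX-EPC (log2 fold change -0.74; limma, adjusted p = 0.0349). The Slc39a10 region is exonic and lies 38928 bp inside the gene.

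Genes of inflammation had 11 regions of 10 genes. For OVX-EPC against M-EPC 7 were tested, 0 passed and the median was -0.61. The antigen presentation gene Cd74 was nearest to the threshold, with 26 and 21 reads for M-EPC and 3 and 11 for OVX-EPC (log2 fold change -1.82; limma, adjusted p = 0.0587). For F-EPC against M-EPC 1 of 3 tested regions, that of Ccl12, was lower. Irf1, an interferon-regulated transcription factor, had 12 and 18 reads for M-EPC, 9 and 5 for F-EPC and 5 and 17 for OVX-EPC and did not pass for F-EPC against M-EPC (log2 fold change -1.37; limma, adjusted p = 0.0872). Angiogenic factors had 11 regions, of which 5 were tested for OVX-EPC against M-EPC and 0 called (median -0.32). Hif1a, the oxygen-sensitive transcription factor, had 18 and 25 reads for M-EPC, 13 and 17 for F-EPC and 11 and 17 for OVX-EPC. Among them Vegfa had 10 and 6 reads for M-EPC and 9 and 6 for OVX-EPC, too few to be tested. For the chemokine gene Ccl3 the study reported, from browser tracks, the mark at the start in F-EPC and OVX-EPC and none in M-EPC. Its region, 43 bp upstream, had 15 and 8 reads for M-EPC, 12 and 10 for F-EPC and 12 and 7 for OVX-EPC. The log2 fold change was -0.25 for OVX-EPC against M-EPC (limma, adjusted p = 0.832). For both female groups against M-EPC it was -0.33 (limma, adjusted p = 0.632). M-EPC thus held reads in this region too, at low counts in every library. Angpt1, Kdr, Nos3 and Tek had no core promoter region among the 7080.

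Among 8 further gene lists with tested regions none was called for OVX-EPC against M-EPC, where the median of all tested core promoters was -0.32. Olfactory and vomeronasal receptors had 77 regions at a median of 12.5 reads per kb and a median CpG ratio of 0.158, and only 6 of the regions could be tested (median 0.32). Only 3 were tested for F-EPC against M-EPC, with a median of -0.10 and 2 of the 3 below 0. Without the filter the receptors' median was 0.42 for OVX-EPC against M-EPC, on the side of the CpG-poor regions outside promoters. Germline genes had 16 regions, of which 9 were tested and 0 called (median -0.13). In F-EPC against M-EPC 7 germline regions were tested, 0 were called and the median was 0.47. Tdrd9, a helicase of the germline pathway that silences transposons, had 12 and 20 reads for M-EPC, 33 and 25 for F-EPC and 22 and 33 for OVX-EPC and did not pass in any comparison. Imprinted genes had 20 regions, of which 12 were tested and 0 called (median -0.10). MicroRNA genes had 52 regions, 21 tested and 0 called (median -0.29). Histone genes had 27, with 12 tested and 0 called (median 0.06), and in F-EPC against M-EPC 6 of 8 lay below 0 (median -0.17). Developmental transcription factors had 33 regions at a low level of 15.6 reads per kb, with 6 tested and 0 called (median -0.15), and in F-EPC against M-EPC 3 of 3 lay below 0 (median -0.85). Protocadherins had 8, with 3 tested and 0 called (median -0.30). Markers of blood cells had 5 regions, with 3 tested and 0 called (median -0.27), and stromal markers had 0. No difference between the lists was tested.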

How the data were processed

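H3K9me3 was profiled by CUT&Tag in 6 libraries, 2 per group (male, female and ovariectomized female EPCs). Per the study's methods, 25 bp paired-end reads were aligned with Bowtie2 to mm10, deduplicated with Picard, and reads with mapping quality under 10 discarded, before MACS, HOMER and ChIPseeker. The submitters' processing notes name BWA and MACS2. Removing reads of low mapping quality lowers signal in repeats. The deposited files are 3 tables, 1 per pair of groups. The authors deposited a normalized signal per region and library, which is whole reads divided by 1 size factor per library and table. Reads recovered this way were whole for 100% of values (tolerance 0.01). The authors' own fold changes and p-values in these tables were not used.

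Signal was tested with limma 3.58.1 (trend) on log2(value + 1) in R 4.3.3, over all regions with a value of at least 10 in at least 2 libraries, with Benjamini-Hochberg adjustment and a threshold of 0.05. The study names no model. A region passes this filter more readily where 1 group is high, so medians over all core promoters were also computed without it. The model of all 6 libraries used reads divided by median-of-ratios factors. Alternatives were TMM factors, region totals, other filters, a pseudocount of 0.5, the replicate block, removal of the GC trend, leaving out each library, and DESeq2 1.42.0 and edgeR 4.0.16 on the recovered reads. These called 1 and 11 core promoters for OVX-EPC against M-EPC. Tested on simulated data, limma recovered 73% of 4-fold and 20% of 2-fold changes in that comparison. Region reads per library numbered 288353 to 573821, which makes single regions imprecise. The lowest total is that of F-EPC replicate 1, whose reads end on chromosome 16. In covered regions reads numbered 200296 in M-EPC replicate 1 to 288353 in F-EPC replicate 1, the deepest library there. Comparisons with F-EPC used the covered regions. Sequences are from GRCm38.p6 and start sites from GENCODE M21. microRNA sequences are from RefSeq. CpG classes were low under a ratio of 0.35 and high from 0.6.

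The core promoters, the gene lists and the tests were chosen with earlier results of these data known. Named were up to 10 regions per direction and comparison with the smallest p among those called without overlap, the 8 with the highest reads per kb, up to 3 per gene list with the highest values, and genes the study examined. Other called regions that are named were picked after their values were seen. Neighbouring regions of Unc5a and Mex3b were added in the same way. A few called regions are not described in the text.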

Additional observations from a re-analysis of the deposited data

How the results depend on the processing

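For OVX-EPC against M-EPC, where 9 core promoters were called, TMM factors gave 5, no filter 18, at least 30 in 2 libraries 26 and DESeq2 1, and leaving out each library gave 0 to 3. For F-EPC against M-EPC, where 20 were called, TMM factors gave 3, at least 30 in 2 libraries 36, DESeq2 2, edgeR 10 and the GC trend removed 12, and leaving out each library gave 0 to 20. For OVX-EPC against F-EPC 0 were called, and leaving out each library gave 0 to 2. For both female groups against M-EPC, where 48 were called, no filter gave 23, DESeq2 3, the GC trend removed 16 and at least 30 in 2 libraries 39, and leaving out each library gave 2 to 45. With at least 30 in 2 libraries 481, 220 and 226 core promoters were tested for OVX-EPC, F-EPC and both female groups against M-EPC. Over all regions 123 of 1918, 161 of 835 and 151 of 862 were then called. Without a filter 145 of 58493 regions were called for OVX-EPC and 260 of 26999 for both female groups. With the GC trend removed 169 of 8139 were called for F-EPC and 331 of 8695 for both. DESeq2 called 7, 4 and 10 regions. The share of reads in core promoters differed by -4.68 to -1.59 points for OVX-EPC against M-EPC and by -5.65 to -2.29 for F-EPC against M-EPC with each library left out. Between the female groups it ran from -0.087 to 1.92 points and reversed without F-EPC replicate 1. With regions limited to at least 30 reads the shares differed by -1.82, -2.02 and 0.282 points. Except where an alternative's construction changes the samples or the regions tested, the cause of these shifts was not tested. The score of core promoters minus other regions was an alternative measure chosen after seeing the data.

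With the replicate number as a block, 12 core promoters were called for OVX-EPC against M-EPC, 20 for F-EPC against M-EPC, 0 between the female groups and 25 for both female groups against M-EPC. With the block and the GC trend removed there were 7, 25, 0 and 15. Over all regions tested, 103, 166, 0 and 214 were called with the block alone, and 67, 321, 1 and 294 with both steps. The numbers gave no pairing: deviations of same-numbered libraries correlated at -0.018, -0.052 and -0.031, and the libraries share only a number.

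Of the named regions' values under the alternatives, 2479 kept their direction and side of the threshold, 526 kept the direction but no longer passed and 29 passed in addition. Most of these values had not passed in the main fits, so keeping their side does not mean that a call was kept. The main fits called 9, 20, 0 and 48 core promoters in the comparisons, and with DESeq2 alone 71 values no longer passed. The score stayed within the spread between replicates in 45 of its values and moved by more in 13. Depth limits single regions to a median of 9 to 12 reads per library.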
